A study of Mus musculus with 6 samples.

Results

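The genes described are the 6 subunits of prefoldin, *Pfdn1*, *Pfdn2*, *Pfdn4*, *Pfdn5*, *Pfdn6* and *Vbp1*, of 55401 genes counted in RNA from mouse tibia. *Pfdn5* was chosen by measured values, namely its fold change and adjusted p between genotypes in an earlier DESeq2 fit of these same libraries, together with its position near *Sp7*. Its values are therefore given as a description, without a p-value, and the 5 partners were added because they belong to the same complex. *Pfdn5* was 1.61-fold higher in Atrx-cKO tibias, and none of the 5 partners passed the edgeR test in either direction. At an adjusted p under 0.05 that test called 0 of the 6 subunits, *Pfdn5* included, so its calls alone do not separate *Pfdn5* from its partners. A gene left uncalled is not thereby shown to be unchanged. Whole tibias were taken from male mice aged 8 weeks, 3 of them Atrx-cKO and 3 control, with 1 library per mouse. Atrx-cKO mice were *Osterix-Cre; Atrxf/y* and controls were *Atrxf/y*, so both groups carried the floxed *Atrx* allele, and *Atrx* encodes a chromatin remodeler. The Cre recombinase is a Tet-off line driven by regulatory sequence of *Sp7* (*Osterix*), a gene of the osteoblast lineage. Doxycycline, recorded for both groups until 3 weeks of age, held the recombinase off until then. The transgene was present in all 3 Atrx-cKO mice and in no control, so its presence and the loss of *Atrx* cannot be told apart.

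Prefoldin is a co-chaperone of the cytosol that takes up newly made, unfolded chains, above all actin and tubulin, and hands them to the chaperonin CCT. Its subunits form a jellyfish-shaped hexamer in which the alpha-type subunits, encoded by *Pfdn5* and *Vbp1*, form the core and the beta-type subunits, encoded by *Pfdn1*, *Pfdn2*, *Pfdn4* and *Pfdn6*, complete the ring of tentacles. The *Pfdn5* protein is also known as a binding partner and repressor of the transcription factor MYC.

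The sequences shown are the 250 bases upstream of the start site of *Pfdn5*, of *Vbp1*, its alpha-type partner whose level did not follow it, and of *Aaas*, a gene near *Pfdn5* that was also higher. They are RefSeq sequences of the GRCm38.p6 build, read 5′ to 3′ on the strand of the gene, at chr15:102325866-102326115 on the plus strand for *Pfdn5*, at chrX:75514047-75514296 on the plus strand for *Vbp1* and at chr15:102350760-102351009 on the minus strand for *Aaas*. The windows are placed by RefSeq, and that of *Aaas* begins at 102350760, short of the gene end at 102350771 in the GENCODE annotation. It therefore holds a few bases of *Aaas* itself. The same window covers the start, at 102350827 on the plus strand, of *Gm36246*, a gene described below. Capitals mark matches, on either strand, to any of 5 motifs.
Pfdn5: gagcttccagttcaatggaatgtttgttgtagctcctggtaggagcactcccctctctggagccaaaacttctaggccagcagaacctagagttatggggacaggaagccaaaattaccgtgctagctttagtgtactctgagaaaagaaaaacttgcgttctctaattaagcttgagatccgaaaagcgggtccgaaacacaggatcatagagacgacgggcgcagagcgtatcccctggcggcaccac
Vbp1: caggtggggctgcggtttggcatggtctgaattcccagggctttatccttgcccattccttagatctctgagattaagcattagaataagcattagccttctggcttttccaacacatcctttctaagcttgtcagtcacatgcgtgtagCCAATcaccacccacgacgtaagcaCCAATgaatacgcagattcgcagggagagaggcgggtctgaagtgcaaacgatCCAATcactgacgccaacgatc
Aaas: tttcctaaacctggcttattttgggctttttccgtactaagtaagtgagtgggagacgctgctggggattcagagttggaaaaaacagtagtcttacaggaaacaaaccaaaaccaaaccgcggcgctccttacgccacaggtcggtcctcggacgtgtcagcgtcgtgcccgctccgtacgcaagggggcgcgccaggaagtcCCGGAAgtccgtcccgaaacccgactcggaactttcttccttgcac
The motifs searched on both strands were the GC box GGGCGG, the E-box CACGTG, the ETS core CCGGAA, the CCAAT box CCAAT and the TATA box TATAAA, none of which overlaps another here. The *Pfdn5* window held none of them, the *Vbp1* window held 3 CCAAT boxes and the *Aaas* window held 1 ETS core. Of 32851 promoter windows of the same length, 32.7% held a GC box, 6.02% an E-box, 12.0% an ETS core, 33.8% a CCAAT box and 12.4% a TATA box. A match describes letters in this window and no match says only that they are not there. RefSeq windows were matched for 5 of the 6 subunits.

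Depth was even between the genotypes. Reads counted on genes ran from 55178546 to 58029939 per Atrx-cKO library and from 50977777 to 70571655 per control library. *Atrx*, at 153 to 171 CPM in Atrx-cKO and 165 to 175 CPM in control, was counted over its whole length, so the count does not separate the floxed part and gives no check of the genotypes. The summed CPM of each of 9 marker lists (osteoblast, osteocyte, osteoclast, chondrocyte, skeletal muscle, B cell, neutrophil, erythroid and adipocyte) overlapped between the genotypes, and none of their markers was at 0 in all 6 libraries. Relative to its level, the widest range was that of skeletal muscle, from 549 to 1940 CPM in Atrx-cKO and from 621 to 9449 CPM in control, the highest in control replicate 3. All 7 osteoblast markers had log2 fold changes below 0, with a median of -0.34, and so had all 6 osteoclast markers, with a median of -0.43. Over all 20636 genes tested, 10064 were below 0. The summed osteoblast CPM ran from 114131 to 117325 in Atrx-cKO and from 108052 to 183954 in control, so the lowest control lay below every Atrx-cKO library. The osteoclast sum ran from 1937 to 2634 CPM in Atrx-cKO and from 2208 to 3664 CPM in control. The medians of the other lists ran from -1.55 for skeletal muscle to 0.22 for B cell. For 1 of the osteoblast markers, *Ibsp*, all Atrx-cKO libraries lay below all controls (1265 ± 27.1 and 1800 ± 432 CPM, SD, n = 3 each, adjusted p = 0.992 in edgeR). No marker of the other lists had its groups apart. Over all genes tested 4.01% had all Atrx-cKO libraries below all controls, so the count is no result about these markers. The part of these markers in the results was not tested. CPM are counts scaled to the same library size after TMM normalization. In bulk RNA, fewer cells of a type and less RNA per cell cannot be told apart.

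*Pfdn5* (ENSMUSG00000001289) spans 102326116 to 102331873 on the plus strand of chromosome 15 (GRCm38). Its level was 92.2, 99.4 and 103 CPM in Atrx-cKO replicates 1, 2 and 3 and 59.9, 57.8 and 65.7 CPM in control replicates 1, 2 and 3. The groups did not overlap, and between the lowest Atrx-cKO library and the highest control library there was a ratio of 1.40. The mean was 98.3 ± 5.57 CPM (SD, n = 3) in Atrx-cKO and 61.1 ± 4.10 CPM (SD, n = 3) in control. On the log2 scale the difference was 0.69 (standard error 0.082). These values rest on 5392, 5676 and 6078 counts in Atrx-cKO and on 3419, 3847 and 3127 counts in control.

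**Figure D1:**
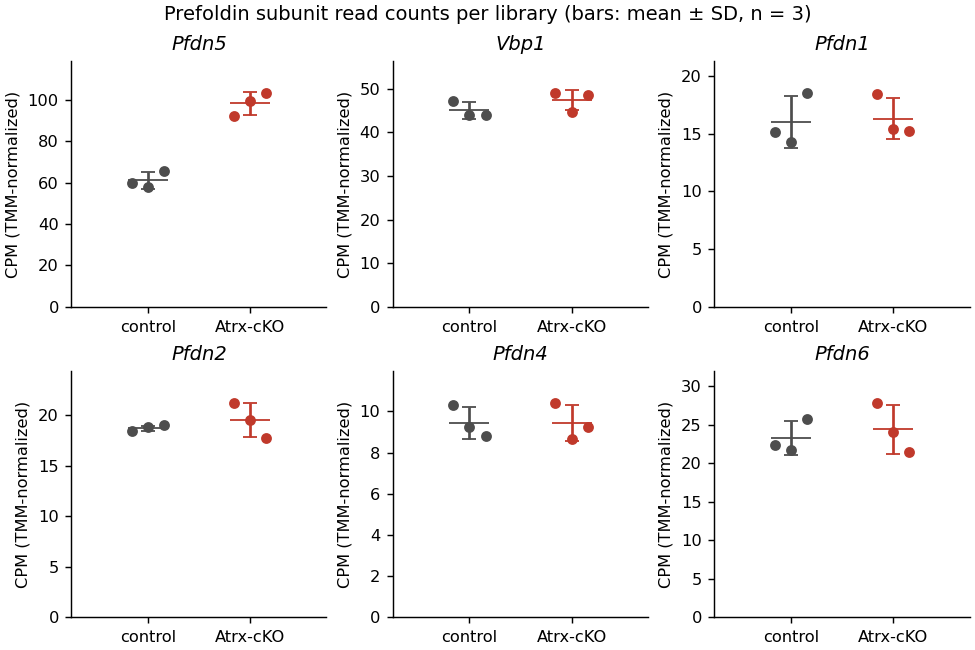
Level of each of the 6 prefoldin subunits in CPM (y axis) in each Atrx-cKO and control library (points), with group means (horizontal lines) and SD (error bars, n = 3). For *Pfdn5* the Atrx-cKO points sit at 92.2 CPM or above and the control points at 65.7 or below, and for each of the 5 partners the groups overlap.

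*Vbp1* (ENSMUSG00000031197), the other alpha-type subunit, lies on the plus strand of chromosome X from 75514299 to 75534942. It had 49.0, 44.7 and 48.6 CPM in Atrx-cKO and 47.3, 43.9 and 44.1 CPM in control replicates 1, 2 and 3. The groups overlapped, with means of 47.4 ± 2.36 and 45.1 ± 1.93 CPM (SD, n = 3 each). The log2 fold change was 0.072 (95% interval -0.10 to 0.25, Benjamini-Hochberg adjusted p = 0.992 by the quasi-likelihood test of edgeR).

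Of the beta-type subunits, *Pfdn6* (ENSMUSG00000024309, minus strand of chromosome 17 from 33938821 to 33940343) had 27.8, 24.1 and 21.4 CPM in Atrx-cKO and 22.4, 21.7 and 25.8 CPM in control. *Pfdn2* (ENSMUSG00000006412, plus strand of chromosome 1 from 171345670 to 171359254) had 21.2, 19.5 and 17.8 CPM in Atrx-cKO and 18.4, 18.8 and 19.0 CPM in control. The groups overlapped for both, and in each the highest value was that of Atrx-cKO replicate 1. *Pfdn1* (ENSMUSG00000024346, minus strand of chromosome 18 from 36403676 to 36454524) had 18.4, 15.4 and 15.2 CPM in Atrx-cKO and 15.1, 14.3 and 18.5 CPM in control. *Pfdn4* (ENSMUSG00000052033, plus strand of chromosome 2 from 170496428 to 170519123) had 10.4, 8.67 and 9.25 CPM in Atrx-cKO and 10.3, 9.23 and 8.80 CPM in control. The groups overlapped for both here too.

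The log2 fold changes of the beta-type subunits were 0.071 for *Pfdn6* (95% interval -0.21 to 0.36), 0.058 for *Pfdn2* (-0.17 to 0.28), 0.033 for *Pfdn1* (-0.28 to 0.35) and -0.001 for *Pfdn4* (-0.30 to 0.30). None of the 5 partners passed the quasi-likelihood test of edgeR, and the lowest adjusted p among them was 0.992. None of the 5 had an unadjusted p under 0.05, and DESeq2 also called 0 of 5. *Pfdn5* was not called by edgeR either, while DESeq2, the kind of fit it was chosen on, called it. Over all genes tested, 0.0145% were called in edgeR, 3.64% had an unadjusted p under 0.05 and 0.155% were called in DESeq2. The median log2 fold change of the partners was 0.058, beside 0.005 over all 20636 genes tested, and it was -0.031 without Atrx-cKO replicate 1. Partner counts per library ran from 419 for *Pfdn4* to 2924 for *Vbp1*. Of the 6 subunits, 1 had all Atrx-cKO libraries above all controls, *Pfdn5* itself, as its selection fixed, and 0 had all below. Over all genes tested these shares were 4.3% above and 4.01% below.

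Per unit of length, *Pfdn5* was the most abundant subunit in both genotypes. On the TPM scale, which divides counts by exon length, the control levels were 147 ± 8.19 (SD, n = 3) for *Pfdn5*, 70.9 ± 6.65 for *Vbp1*, 65.2 ± 4.51 for *Pfdn6*, 48.0 ± 5.35 for *Pfdn1*, 32.3 ± 1.20 for *Pfdn2* and 12.6 ± 1.70 for *Pfdn4*. The neighbors *Vbp1* and *Pfdn6* did not differ beyond their spread, and the other neighbors in this order did. The level of *Pfdn4* depends on the length used, and with the longest transcript in place of all exons it was 23.8 ± 3.23 TPM beside 28.3 ± 1.06 for *Pfdn2* in control. In Atrx-cKO the order of the means was the same, with *Pfdn5* at 216, 246 and 254.5 TPM (mean 239 ± 20.1, SD, n = 3) and *Vbp1*, the next, at 75.3 ± 3.04. The difference between genotypes in the mean was 92.4 TPM for *Pfdn5*, more than the control level of any partner.

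**Figure D2:**
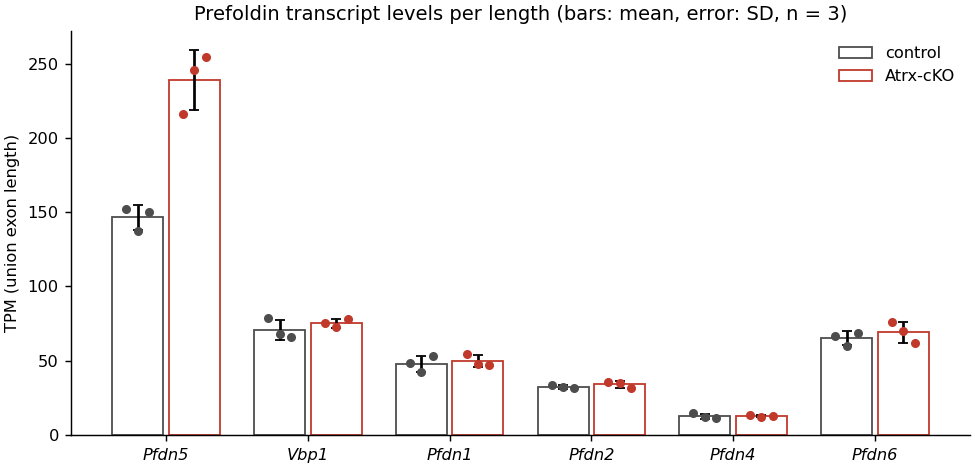
Length-normalized level (TPM, y axis) of the 6 prefoldin subunits in each library (points), with bars for the group means and error bars for the SD (n = 3). *Pfdn5* is the highest in all 6 libraries and *Pfdn4* the lowest.

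The level of *Pfdn5* was also described relative to its partners within each library. Since *Pfdn5* was chosen on these libraries, the ratios below restate its difference and add no independent result. The log2 CPM of *Pfdn5* minus the mean of the log2 CPM of the 5 partners was 2.05, 2.35 and 2.42 in Atrx-cKO and 1.60, 1.62 and 1.69 in control replicates 1, 2 and 3. The groups did not overlap, and the means were 2.27 ± 0.20 and 1.63 ± 0.048 (SD, n = 3 each), a difference of 0.64. The value was lowest in replicate 1 of the Atrx-cKO group, in which *Pfdn5* was the lowest of the 3 and *Pfdn1*, *Pfdn2*, *Pfdn4*, *Pfdn6* and *Vbp1* were each the highest of the 3. Summed over the 5 partners the levels overlapped, at 117 ± 8.30 CPM in Atrx-cKO and 113 ± 4.27 CPM in control (SD, n = 3 each).

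The ratios to single partners share the *Pfdn5* values and are likewise a description. The CPM ratio of *Pfdn5* to *Vbp1* was 2.08 ± 0.174 in Atrx-cKO and 1.36 ± 0.117 in control (SD, n = 3 each), and that to *Pfdn4*, the least abundant partner, was 10.5 ± 1.42 and 6.51 ± 0.853. The ratio was 4.08 ± 0.747 and 2.63 ± 0.0686 to *Pfdn6*, 5.08 ± 0.721 and 3.26 ± 0.190 to *Pfdn2* and 6.08 ± 0.942 and 3.85 ± 0.265 to *Pfdn1*, in the same order. The groups did not overlap for any of the 5 ratios. When the mean log2 CPM of the other partners was subtracted from that of each partner in the same way, the difference between genotypes ran from -0.059 for *Pfdn4* to 0.033 for *Vbp1*, and the groups overlapped in all 5 cases. *Pfdn5* took 45.9%, 51.0% and 52.3% of the summed prefoldin TPM in Atrx-cKO and 38.7%, 38.9% and 39.5% in control. The mean shares were 49.7% ± 3.39 and 39.0% ± 0.414 (SD, n = 3 each).

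**Figure D3:**
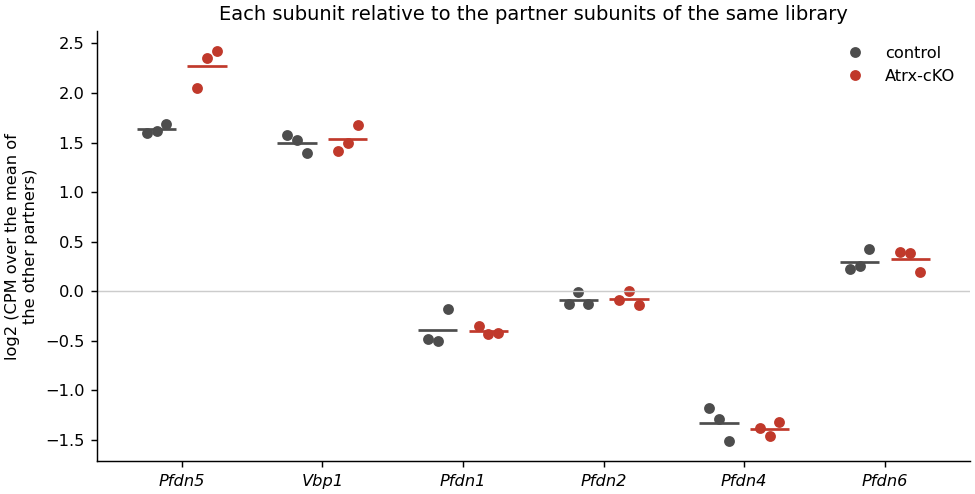
Log2 CPM of each subunit minus the mean log2 CPM of the other partner subunits in the same library (y axis), with 1 point per library and a line at each group mean. The *Pfdn5* points of Atrx-cKO sit at 2.05 or above and those of control at 1.69 or below, and the genotypes overlap for every partner.

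The genes of the wider folding pathway, its main substrates and the MYC network were described from 6 lists. None of these lists held a gene called by edgeR or by DESeq2. All 8 genes of CCT, the chaperonin that takes substrates from prefoldin, had log2 fold changes above 0, from 0.062 for *Cct7* to 0.16 for *Cct6a*, with a median of 0.11. *Cct6a* had 129, 102 and 89.8 CPM in Atrx-cKO and 99.5, 91.7 and 95.3 CPM in control. The groups overlapped, and all 8 genes were highest in Atrx-cKO replicate 1, without which the median of the list was -0.012. The 9 genes of the prefoldin-like module and the R2TP co-chaperone, which assembles large complexes such as RNA polymerase, had a median of 0.031, from -0.10 for *Uxt*, a prefoldin-like alpha subunit, to 0.13 for *Ruvbl2*, an ATPase of R2TP. The 3 phosducin-like cofactors of CCT had a median of 0.007, from -0.13 for *Pdcl3* to 0.051 for *Txndc9*. The 6 tubulin cofactors, which fold and join tubulin after CCT, had a median of 0.001, from -0.021 for *Tbcc* to 0.062 for *Arl2*.

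The main substrates of prefoldin were measured as 14 actin and tubulin genes, with a median log2 fold change of 0.035. The lowest was *Tubb6*, a beta-tubulin, at -0.35, with 38.5, 28.5 and 33.2 CPM in Atrx-cKO and 37.8, 39.7 and 50.0 CPM in control. Its groups overlapped, and the edgeR test gave an unadjusted p of 0.0451 and an adjusted p of 0.992. The highest was *Tuba1b*, an alpha-tubulin, at 0.16. The 9 genes of the MYC network had a median of 0.019, from -0.091 for *Mxd4* to 0.17 for *Mxd1*, both partners of MAX that oppose MYC. *Myc* itself, named because its protein binds that of *Pfdn5*, had 38.7 ± 5.46 CPM in Atrx-cKO and 37.7 ± 0.718 CPM in control (SD, n = 3 each). Its log2 fold change was 0.037 (standard error 0.11). Across the 6 lists 1 gene, *Tubb6*, had an unadjusted p under 0.05, where 3.64% of all genes tested did, so the count is no result about these lists.

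**Figure D4:**
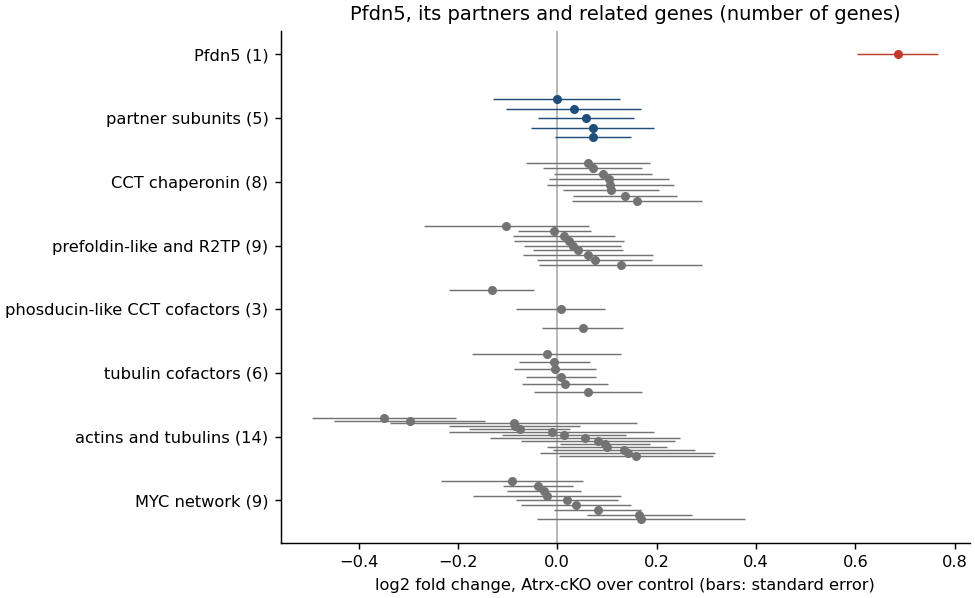
Log2 fold change of Atrx-cKO over control (x axis) for the prefoldin subunits and the genes of the 6 pathway lists, with 1 point per gene and its standard error as a bar. *Pfdn5* at 0.69 is the only point past 0.5 in either direction, and the 8 CCT genes sit between 0.062 and 0.16.

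*Pfdn5* lies near *Sp7*, and its nearest neighbors on that side were also higher. Its 3′ end is 24.7 kb from the *Sp7* gene body and the 2 start sites are 41.1 kb apart. *Myg1* (plus strand of chromosome 15 from 102331709 to 102338139), a nuclease gene that overlaps the end of *Pfdn5*, had 29.7, 28.3 and 27.7 CPM in Atrx-cKO and 15.7, 18.2 and 17.9 CPM in control. *Aaas* (minus strand of chromosome 15 from 102338252 to 102350771), which encodes a nuclear pore protein, had 50.1, 39.0 and 42.1 CPM in Atrx-cKO and 26.9, 25.3 and 23.6 CPM in control. The groups did not overlap in either gene. The log2 fold changes were 0.73 for *Myg1* (standard error 0.095) and 0.79 for *Aaas* (standard error 0.11), and like that of *Pfdn5* they are a description. The folds were alike, at 1.61 for *Pfdn5*, 1.66 for *Myg1* and 1.73 for *Aaas*, so that the ratio of *Pfdn5* to *Myg1* was 3.45 ± 0.314 in Atrx-cKO and 3.56 ± 0.346 in control (SD, n = 3 each) and the groups overlapped. *Gm36246*, between *Aaas* and *Sp7*, had 12, 13 and 17 counts in Atrx-cKO and 2, 9 and 3 in control, and its log2 fold change was 1.57 with a standard error of 0.59.

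The other 6 tested genes within 100 kb of *Sp7* had log2 fold changes from -0.19 to 0.051, with a median of -0.012. *Pfdn5*, *Myg1*, *Aaas* and *Gm36246* were set apart on these same values, so the range of the rest is a description. *Espl1*, whose end lies 1.76 kb before the start of *Pfdn5*, was at 0.051, and *Sp7* itself was at -0.19 (standard error 0.15). *Rarg*, *Mfsd5*, *Sp1*, *Amhr2* and *Prr13* had log2 fold changes of -0.045, -0.060, 0.021, -0.19 and 0.037. Over all 10 tested genes within 100 kb of *Sp7*, of 15 annotated, the median was 0.044, and it was 0.163 without control replicate 1 and 0.242 without control replicate 3. From 100 to 500 kb away, 19 tested genes ran from -0.69 to 0.22, and the 12 of them with a mean of at least 10 CPM from -0.12 to 0.092. Within 100 kb of the partners 48 genes were tested. Neither edgeR nor DESeq2 called any of those 48, and the lowest adjusted p by the edgeR test was 0.992. At an unadjusted p under 0.05 edgeR picked 1 of them, *H2-K1* near *Pfdn6*, at a log2 fold change of 0.32 (standard error 0.13), where 3.64% of all genes tested had such a p. Of the 48, 4 had log2 fold changes of at least 0.5 in size, namely *Hbegf* near *Pfdn1* at -0.55 (standard error 0.35) and, near *Pfdn6*, the weakly expressed *Platr17*, *CR974462.6* and *Gm20427* at -0.70, -0.53 and -0.87 (standard errors 0.53, 0.32 and 0.54). Copies of the transgene were not measured, and their part in these values was not tested.

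**Figure D5:**
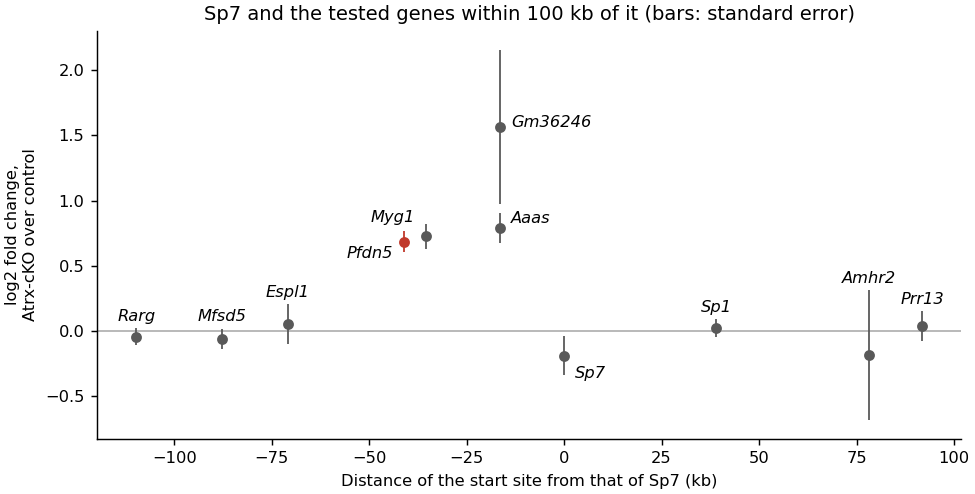
Log2 fold change of Atrx-cKO over control with its standard error (y axis) for genes around *Sp7*, by distance from the *Sp7* start site in kb (x axis). *Pfdn5*, *Myg1*, *Aaas* and *Gm36246* stand from 0.69 to 1.57, with *Espl1* at 0.051 on one side and *Sp7* at -0.19 on the other.

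Over the 6 libraries, the 5 genes whose centered log2 CPM lay nearest to that of *Pfdn5*, of 16170 genes with a mean of at least 1 CPM, were *Klhl4*, *BC002059*, *Adh6b*, *Nrp1* and *Myg1*. The root mean square differences were 0.0663, 0.086, 0.102, 0.114 and 0.115 on the log2 scale. *Aaas* ranked 44, and the partners ranked from 2259 for *Vbp1* to 8042 for *Pfdn4*. The 6 libraries are the same ones on which *Pfdn5* was chosen, so this order is a description.

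Reads of *Pfdn5* can be shared with other genes only in part. *Pfdn5* and *Myg1* share 165 exonic bases on the same strand, 11.8% of the 1394 exonic bases of *Pfdn5*, and reads there can be counted for neither or either gene. The processed pseudogene *Gm5644* on chromosome X matches *Pfdn5* over 465 bases at 97.0% identity and held 4, 10 and 10 counts in Atrx-cKO and 5, 8 and 1 in control. *Klhdc9*, on the opposite strand of *Pfdn2*, shares 535 bases with it and had 1.38 to 2.57 CPM, and *Gm16796*, on the opposite strand of *Pfdn4*, had 0.54 to 1.05 CPM.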

How the data were processed

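RNA from whole tibias was selected for polyadenylated transcripts and sequenced by GENEWIZ, and the labels call the libraries strand specific. For each library the authors deposited unnormalized read counts per gene, and the 5 summary rows were left out of the fits (reads on no feature were 51.6% to 52.4% of each table). DESeq2 and GRCm38 are named in the submitters' processing notes. The aligner and counting program are not given in the sources used here. Genotype and replicate came from the sample labels. Genes were named by GENCODE M21, which matched 55141 of 55401 identifiers.

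Counts were fitted with edgeR 4.0.16 (TMM, filterByExpr at its defaults, glmQLFit and glmQLFTest, genotype alone) in R 4.3.3. The 20636 genes kept were adjusted together by Benjamini-Hochberg and called at an adjusted p under 0.05. DESeq2 1.42.0 was the alternative test. TPM used the union of exon lengths. Fits were tested on simulated data with 200 genes changed, each by a larger fold than that of *Pfdn5* here. This does not show how often the fits would call differences as small as those described. Same-genotype libraries differed by more than sampling noise (chi-square divided by its degrees of freedom was 15.8 to 137 between pairs). P-values set the difference between genotypes against the spread between mice of the same genotype, for these 6 mice.

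The members and lists were chosen with earlier results of these data known. The genes named were the subunits, the tested genes near *Sp7*, the highest and lowest of each list and the 5 genes most like *Pfdn5*. *Myc*, *Ibsp*, *H2-K1*, *Hbegf*, *Platr17*, *CR974462.6*, *Gm20427*, *Klhdc9*, *Gm5644* and *Gm16796* were named outside this rule after their values were seen, and the search for copies and the genes from 100 to 500 kb of *Sp7* were added after the data were seen. Alternatives were size factors, filters, replicate block and leaving out each library.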

Additional observations from a re-analysis of the deposited data

How the results depend on the processing

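With 3 libraries per genotype, the widest 95% interval among the partners was that of *Pfdn1*, from -0.28 to 0.35 on the log2 scale. RLE size factors, no filter on low counts, at least 10 counts in every library and DESeq2 called 0 of the 5 partners, as did every fit without 1 library. Equal replicate numbers were not treated as pairs, and the deviations of libraries that share a number correlated at -0.025, 0.062 and -0.071. These values show no pairing but cannot exclude one of small effect. Under the replicate block the log2 fold change of *Pfdn5* was 0.69, the median of the partners was 0.054 and 0 partners were called. In fits that each left out 1 library, *Pfdn5* ran from 0.645 to 0.728 and *Pfdn5* against its partners from 0.565 to 0.754, while the median of the partners ran from -0.031 to 0.080. Among the partners, *Pfdn1* ran from -0.061 to 0.139, *Pfdn2* from -0.007 to 0.116, *Pfdn4* from -0.077 to 0.066, *Pfdn6* from -0.031 to 0.155 and *Vbp1* from 0.043 to 0.109. Without Atrx-cKO replicate 1, *Pfdn1*, *Pfdn2* and *Pfdn6* were below 0. List medians ran from -0.012 to 0.184 for CCT, -0.055 to 0.087 for the prefoldin-like and R2TP genes, -0.041 to 0.005 for the phosducin-like cofactors, -0.022 to 0.021 for the tubulin cofactors, -0.099 to 0.116 for actins and tubulins and -0.040 to 0.075 for the MYC network, so each of the 6 took both signs. The median of the genes near *Sp7* lay between -0.002 and 0.242. The cause was not tested.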
